A study of Mus musculus with 12 samples.

Results

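The nuclear-encoded subunits of respiratory complex I were followed in MIWI-immunoprecipitated RNA and in input RNA of mouse late spermatocytes. The members were the 37 mouse Nduf genes of a list made by gene name, found by Ensembl ID among the 20345 genes of the deposited table, and all 37 were present. Each column of that table gives 1 RPKM value per gene, a read number scaled to gene length and to column depth. All 37 also passed a filter of at least 1 RPKM in at least 2 of the 6 columns, as did 12246 of the 20345 genes.

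Complex I, NADH:ubiquinone oxidoreductase, is the entry enzyme of the respiratory chain. Its matrix arm takes electrons from NADH and passes them along iron-sulfur clusters to ubiquinone, and its membrane arm pumps protons across the inner mitochondrial membrane. Some of its core subunits are encoded by mitochondrial DNA and are not in the list, while the remaining core subunits and all accessory subunits are nuclear genes whose proteins are imported. Germ cells in late meiosis are known to oxidise lactate and pyruvate supplied by Sertoli cells. MIWI is the PIWI-clade Argonaute protein that carries pachytene piRNAs, the small RNAs that become abundant in these cells.

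The labels give 12 samples in 6 groups of 2, all from late spermatocytes and depleted of ribosomal RNA. The MIWI immunoprecipitates (IPs) came from Miwi ADH/-, Miwi +/- and Miwi -/- animals, and so did the inputs. ADH is known as an allele with an altered catalytic site of MIWI, +/- carries 1 intact allele, and every genotype carries at least 1 null allele. No group is wild type. The Miwi -/- IP lacks the target protein and measures background. Age and strain are not given, and the labels state that RNA came either from testes or from sorted cells without saying which. The table has 1 column per group with no replicate number, so no difference has a replicate check and no test of genotypes was possible. Intervals in parentheses are exact 95% intervals for a ratio of read numbers recovered from the RPKM steps. They cover counting error only, and reads copied by PCR are not independent molecules. The level of Miwi itself and the markers of late spermatocytes or other testis cells were not analysed here, because no names were paired with the other gene IDs.

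The list held 7 core subunits, 9 accessory subunits of the matrix arm, 19 accessory subunits of the membrane arm, the acyl carrier protein Ndufab1, and Ndufa4, which was named for complex I and is now counted with complex IV. The IP columns held 3706479 reads in listed genes for Miwi ADH/-, 1725558 for Miwi +/- and 761525 for Miwi -/-. The inputs held 2627634, 3918947 and 3810918 reads in the same order of genotypes. Of these the Miwi -/- IP was the least deep, and several members rest there on fewer than 10 reads.

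Complex I transcripts were abundant in input RNA. Their median was 82.5 RPKM in the Miwi ADH/- input, 100.1 in the Miwi -/- input and 85.4 in the Miwi +/- input, against medians of 6.90, 6.58 and 7.37 RPKM for all kept genes in the same columns. In those inputs 36, 36 and 35 of the 37 members lay above the median of all kept genes. The most abundant in each input was Ndufa5 (ENSMUSG00000023089), an accessory subunit of the matrix arm, with 502, 598 and 594 RPKM in Miwi ADH/-, Miwi -/- and Miwi +/-. The most abundant core subunit was Ndufv2 (ENSMUSG00000024099), an iron-sulfur protein, with 489.8, 377 and 381 RPKM. The lowest was the membrane arm gene Ndufb11 (ENSMUSG00000031059), with 1.00, 1.09 and 3.53 RPKM. Ndufb11 and Ndufa1 (ENSMUSG00000016427), another membrane arm subunit, are the 2 members on the X chromosome, which is silenced in male meiosis as a rule. Ndufa1 was at 16.5 RPKM in the Miwi ADH/- input, 61.8 in the Miwi -/- input and 45.6 in the Miwi +/- input, so the X-linked pair did not share a level.

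Levels within the complex spanned a wide range although its subunits assemble in fixed proportions. Of the core subunits, Ndufv1 (ENSMUSG00000037916), which binds NADH and the flavin, had 71.7, 88.3 and 85.2 RPKM in the Miwi ADH/-, Miwi +/- and Miwi -/- inputs. Ndufs1 (ENSMUSG00000025968), the largest subunit and carrier of several iron-sulfur clusters, had 18.7, 31.2 and 27.9 RPKM in the same order of genotypes. Ndufs7 (ENSMUSG00000020153), an iron-sulfur subunit beside the ubiquinone site, had 15.2, 33.7 and 24.2 RPKM. Ndufs1 and Ndufs7 thus lay well below Ndufv2 in every input. The order of members was shared between genotypes: across the 37 genes the log2 input levels of Miwi ADH/- and Miwi +/- had Pearson's r = 0.965, and those of Miwi -/- and Miwi +/- had r = 0.979. These describe genes of the same libraries, which are not independent replicates.

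**Figure D1:**
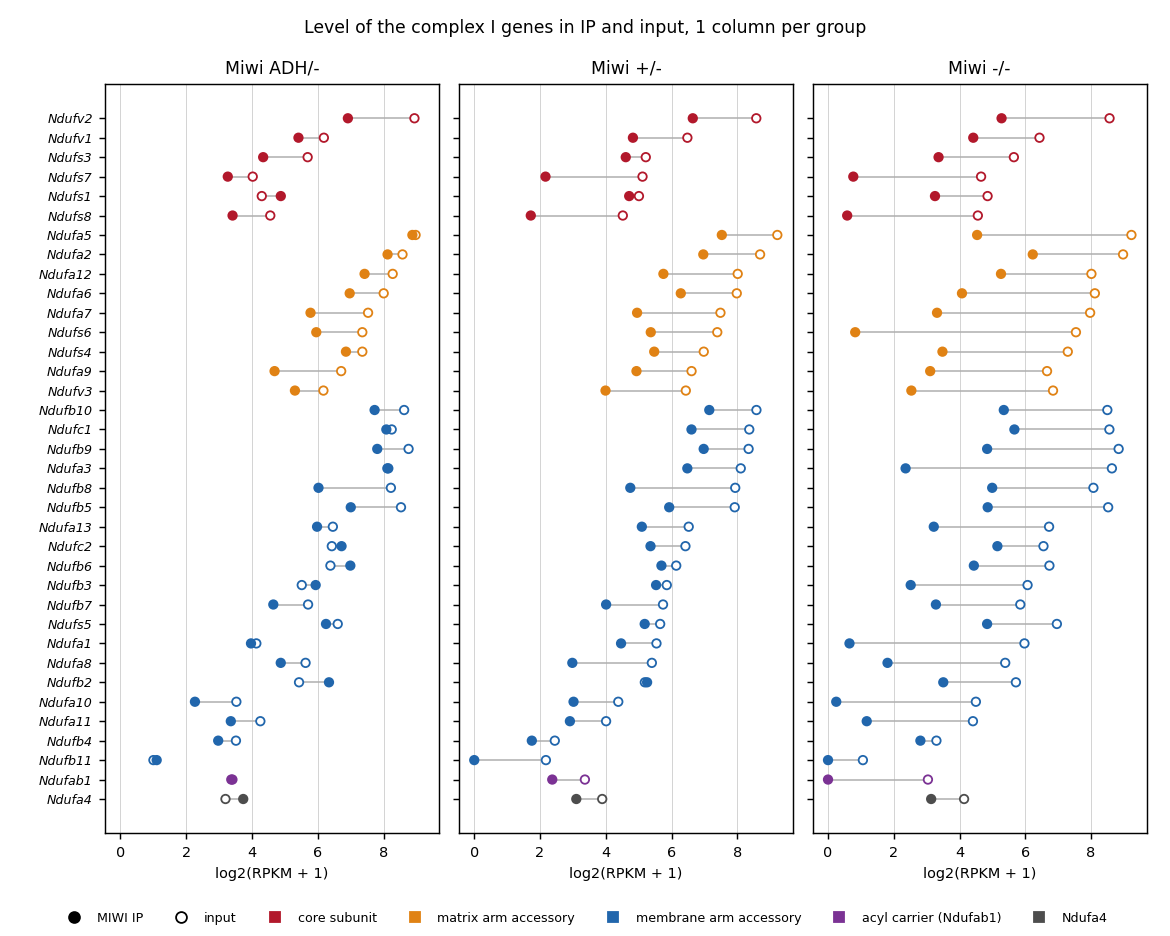
Level of 36 of the 37 complex I genes in log2(RPKM + 1) units, with 1 panel per genotype and genes grouped by their place in the complex; filled points are the IP and open points the input. Over all 37 genes the Miwi -/- IP holds the lowest IP value in 34, while the 3 inputs lie close together for most genes.

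The transcripts are short as well as abundant. Lengths recovered from the RPKM steps were 0.251 to 1.65 times that of the median kept gene, with a median of 0.435, and 34 of the 37 members were shorter than the median gene. With all kept genes cut into 5 bins of equal size, 22 members lay in the shortest bin and 11 in the next, and 28 lay in the bin with the highest input level.

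The complex I genes took up a smaller share of the reads in every IP than in its input. They held 0.680% of the reads in listed genes in the Miwi ADH/- IP (Wilson 95% interval 0.671 to 0.688), against 0.842% in the Miwi ADH/- input (0.831 to 0.853). The share was 0.417% in the Miwi +/- IP (0.408 to 0.427), against 0.724% in its input (0.715 to 0.732). In Miwi -/- it was 0.240% in the IP (0.229 to 0.251), against 0.810% in the input (0.801 to 0.819). The IP shares kept the order Miwi ADH/- above Miwi +/- above Miwi -/-, with intervals that do not touch. As a share of summed RPKM, which removes the weight of long genes, the members made up 1.27%, 0.799% and 0.449% of the Miwi ADH/-, Miwi +/- and Miwi -/- IPs, against 1.35%, 1.35% and 1.52% of their inputs. By that measure the IP held 0.937 times the share of its input in Miwi ADH/-, 0.592 times in Miwi +/- and 0.295 times in Miwi -/-.

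**Figure D2:**
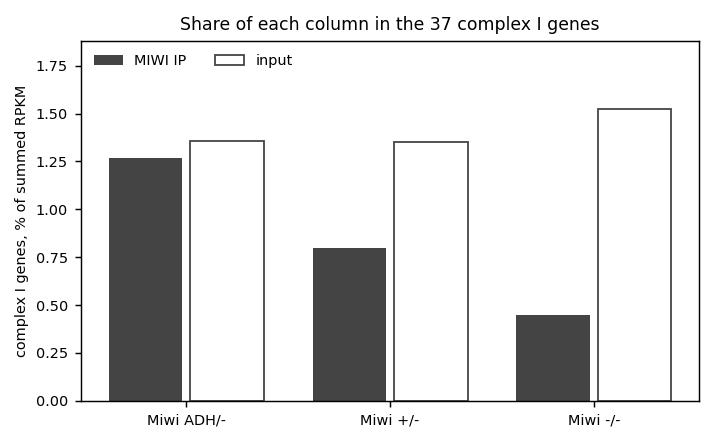
Share of the summed RPKM held by the 37 complex I genes, in percent, in the IP and the input of each genotype. The IP bars stand at 1.27% in Miwi ADH/-, 0.799% in Miwi +/- and 0.449% in Miwi -/-, while the inputs lie between 1.35% and 1.52%.

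Gene by gene, members were mostly below their own input in the IP, least so in Miwi ADH/-. The median difference, on the log2(RPKM + 1) scale used for all differences, was -0.76 in Miwi ADH/-, -1.66 in Miwi +/- and -3.23 in Miwi -/-, against -0.41, -0.77 and -1.37 for all 12246 kept genes. In Miwi ADH/-, 12 of 37 members were at least 2-fold lower in the IP and none was at least 2-fold higher, where 25.0% of kept genes were lower and 4.83% higher. In Miwi +/-, 28 members were lower and none higher, where 40.6% of kept genes were lower and 4.24% higher. In Miwi -/-, 36 members were lower and none higher, where 60.9% of kept genes were lower and 3.67% higher. The member share thus lay close to the background in Miwi ADH/- and above it in the other genotypes. The centre of all genes depends on the scale: with every column brought to the same sum of RPKM, the median of all kept genes was 0.05, -0.07 and -0.46 in Miwi ADH/-, Miwi +/- and Miwi -/-, and that of the members -0.16, -0.76 and -1.98.

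**Figure D3:**
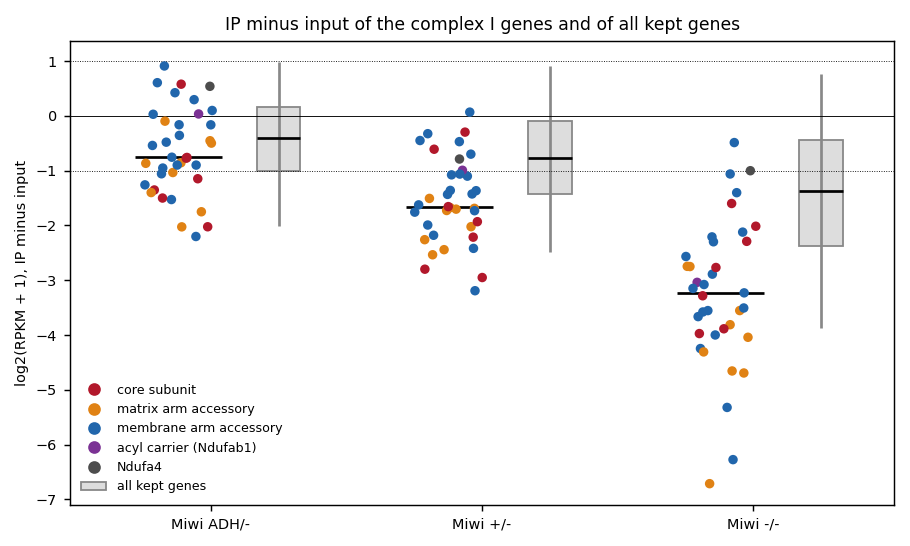
Difference between IP and input of each complex I gene (points, coloured by place in the complex, bar at the median) beside all kept genes (grey box over the quartiles with the median, line from the 5th to the 95th percentile), in log2(RPKM + 1) units. The member medians are -0.76, -1.66 and -3.23 in Miwi ADH/-, Miwi +/- and Miwi -/-, below the medians of all genes in each genotype.

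Genes of like length and level show part of the same difference. A class of genes in the 2 shorter bins of length and the top bin of input level, chosen after the data were seen, held 26 members and 1276 other genes. In Miwi -/- the IP minus input median was -3.39 for those members and -2.78 for the others, and 100% of the members against 84.8% of the others were at least 2-fold lower in the IP. In Miwi +/- the medians were -1.68 for members and -1.39 for the others, with 80.8% of members and 65.5% of the others lower. In Miwi ADH/- they were -0.81 for members and -0.94 for the others, with 34.6% of members and 47.4% of the others lower. Set beside genes of their own class, the members stood lower in the Miwi -/- and Miwi +/- IPs and slightly higher in the Miwi ADH/- IP. With each gene centred on the genes of its own bin of length and of level, the member medians became 0.15 in Miwi ADH/-, -0.22 in Miwi +/- and -0.55 in Miwi -/-. None of these differences was tested, since no column has a replicate.

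Core subunits, among them the carriers of the redox centres, lay lower in the Miwi ADH/- IP than the membrane arm subunits did. The median IP minus input in Miwi ADH/- was -1.15 for the 7 core subunits, -0.87 for the 9 matrix arm accessory subunits and -0.48 for the 19 membrane arm accessory subunits, with 4, 4 and 4 members at least 2-fold lower. In Miwi +/- the medians were -1.93, -1.73 and -1.37, with 5, 9 and 14 members lower. In Miwi -/- they were -2.77, -4.04 and -3.15, with 7, 9 and 18 members lower. Core subunits had the lowest median in Miwi ADH/- and Miwi +/-, and matrix arm accessory subunits in Miwi -/-. The groups overlapped widely in each genotype.

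Among the core subunits, Ndufs1 alone had more signal in the IP than in the input of Miwi ADH/-. Its levels were 28.3 RPKM in Miwi ADH/-, 25.2 in Miwi +/- and 8.53 in Miwi -/- IPs, against 18.7, 31.2 and 27.9 RPKM in the inputs of the same genotypes. The ratio of IP to input was 1.52 (1.32 to 1.76) in Miwi ADH/-, 0.808 (0.708 to 0.922) in Miwi +/- and 0.306 (0.241 to 0.384) in Miwi -/-. At the other end of the core, Ndufv2 had 119.7 RPKM in Miwi ADH/-, 99.1 in Miwi +/- and 37.8 in Miwi -/- IPs, against 489.8, 381 and 377 RPKM in the inputs. Its ratio was 0.244 (0.228 to 0.262) in Miwi ADH/- and 0.260 (0.237 to 0.286) in Miwi +/-, intervals that overlap, and 0.1003 (0.0842 to 0.119) in Miwi -/-. In Miwi ADH/- Ndufv2 had the third lowest IP minus input value of the 37 members.

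The core subunits near the ubiquinone site did not move together. Ndufs3 (ENSMUSG00000005510) had 19.2 RPKM in Miwi ADH/-, 23.4 in Miwi +/- and 9.28 in Miwi -/- IPs, against 50.7, 36.2 and 49.3 RPKM in the inputs, with a ratio of 0.380 (0.304 to 0.474) in Miwi ADH/- and 0.646 (0.5001 to 0.831) in Miwi +/-. It was the one member whose whole interval lay lower in Miwi ADH/- than in Miwi +/-. Ndufs7 and Ndufs8 (ENSMUSG00000059734), both iron-sulfur subunits, went the opposite way: Ndufs7 had a ratio of 0.564 (0.387 to 0.823) in Miwi ADH/-, 0.104 (0.0554 to 0.179) in Miwi +/- and 0.0291 (0.00348 to 0.107) in Miwi -/-. For Ndufs8 the ratios were 0.427 (0.324 to 0.563), 0.105 (0.0545 to 0.184) and 0.0221 (0.00265 to 0.0812) in the same order. The Miwi -/- IP held only 2 reads of each of Ndufs7 and Ndufs8, and the Miwi +/- IP held 14 and 13.

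**Figure D4:**
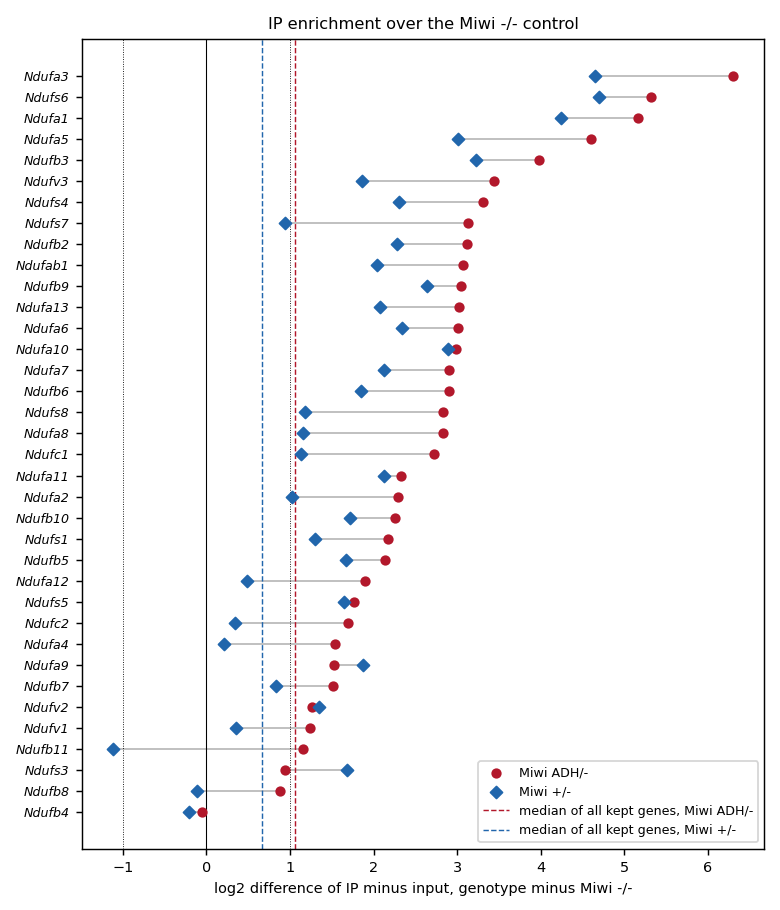
IP minus input of the Miwi ADH/- IP and of the Miwi +/- IP, each less that of Miwi -/-, for 36 of the 37 complex I genes in log2(RPKM + 1) units, with dashed lines at the medians of all kept genes. Ndufa3, Ndufs6 and Ndufa1 stand at the top with values above 4 in both genotypes, and Ndufb4 lies near 0 in both.

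Set against the Miwi -/- background, most members were enriched in both IPs that hold MIWI. The IP minus input difference exceeded that of Miwi -/- by a median of 2.72 in Miwi ADH/- and of 1.68 in Miwi +/-, against 1.06 and 0.67 for all kept genes. In Miwi ADH/-, 34 of 37 members were at least 2-fold higher than in Miwi -/- and none was at least 2-fold lower, where 51.9% of kept genes were higher and 7.30% lower. In Miwi +/-, 27 members were higher and 1 lower, where 39.3% of kept genes were higher and 9.56% lower. The 1 lower member, Ndufb11, had 0 reads in both IPs, so its value comes from the inputs alone. Both comparisons share the Miwi -/- columns, so their values are not independent of each other. In the class of short and abundant genes, 92.3% of the 26 members and 72.0% of the 1276 other genes were higher in Miwi ADH/-, with medians of 2.77 and 1.69. The same figures for Miwi +/- were 80.8% of members and 56.5% of the others, with medians of 1.78 and 1.20. Centred on their bins of length and level, 15 members were at least 2-fold higher in Miwi ADH/- (median 0.90), where 19.2% of kept genes were, and 11 in Miwi +/- (median 0.30), where 21.1% were.

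The intervals of single genes gave the same order. The ratio of IP to input in Miwi ADH/- lay wholly above that in Miwi -/- for 35 of 37 members and below it for none, where it lay above for 52.5% and below for 4.07% of kept genes. The ratio in Miwi +/- lay wholly above that in Miwi -/- for 26 and below it for none, where it lay above for 42.1% and below for 6.16% of kept genes. Among short and abundant genes it lay above for 100% of members and 81.6% of the others in Miwi ADH/-, and for 76.9% of members and 67.2% of the others in Miwi +/-. Across genotypes the ratio ran Miwi ADH/- above Miwi +/- above Miwi -/- in 31 of the 37 members. The share of kept genes with that order is not given here. Their median IP minus input ran in the same order, at -0.41, -0.77 and -1.37, so the order is not particular to the members. By place in the complex, the median enrichment over Miwi -/- was 1.27 for core, 3.01 for matrix arm and 2.72 for membrane arm subunits in Miwi ADH/-, with 6 of 7, 9 of 9 and 17 of 19 at least 2-fold higher. In Miwi +/- it was 1.17, 2.12 and 1.72, with 4, 8 and 14 members higher. The core subunits thus had the lowest median of these groups in both genotypes, but the groups overlapped. In Miwi ADH/- core values ran from 0.94 to 3.13 and membrane arm values from -0.05 to 6.30. Centring on length and level put Ndufv1 and Ndufv2 below 0 in Miwi ADH/-, at -0.26 and -0.24.

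The 3 members with the highest enrichment in both genotypes were Ndufa3 (ENSMUSG00000035674), Ndufs6 (ENSMUSG00000021606) and Ndufa1. Ndufa3 is a small membrane arm subunit, and Ndufs6 is a zinc-binding matrix arm subunit. Ndufa3 had 282 RPKM in Miwi ADH/-, 88.2 in Miwi +/- and 4.13 in Miwi -/- IPs, against 276, 274 and 396 RPKM in the inputs. Its reads in the IPs were 1212, 211 and 7. The IP of Miwi ADH/- lay at the level of its input within counting error, that of Miwi +/- lay below it, and that of Miwi -/- was almost empty, with ratios of 1.02 (0.925 to 1.13), 0.322 (0.275 to 0.375) and 0.0104 (0.00419 to 0.0216). Its enrichment of 6.30 in Miwi ADH/- ranked 1 of 12246 kept genes, and that of 4.65 in Miwi +/- ranked 38.

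Ndufs6 had 61.0 RPKM in Miwi ADH/-, 40.3 in Miwi +/- and 0.774 in Miwi -/- IPs, against 163, 167 and 185 RPKM in the inputs. The ratio was 0.375 (0.329 to 0.427) in Miwi ADH/-, 0.242 (0.201 to 0.289) in Miwi +/- and 0.00418 (0.000506 to 0.0152) in Miwi -/-, where only 2 reads were found. Ndufs6 was therefore below its input in every IP, and its rank of 10 in Miwi ADH/- and 37 in Miwi +/- for enrichment came with the second lowest IP minus input value of all kept genes in Miwi -/-. Ndufa1 had 14.7 RPKM in Miwi ADH/-, 21.1 in Miwi +/- and 0.572 in Miwi -/- IPs, against 16.5, 45.6 and 61.8 RPKM in the inputs. Its Miwi -/- IP held 1 read, its ratios were 0.887 (0.586 to 1.36), 0.463 (0.330 to 0.640) and 0.00925 (0.000233 to 0.0522), and its enrichment ranked 15 in Miwi ADH/- and 65 in Miwi +/-. For all 3 genes the size of the enrichment rests on fewer than 10 reads in the Miwi -/- IP. With a pseudocount of 0.1 in place of 1, the enrichment in Miwi ADH/- was 6.31 for Ndufs6 and 6.35 for Ndufa1, and in Miwi +/- it was 5.68 and 5.42.

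The start regions of Ndufa3 and Ndufs6 are shown because these genes had the largest enrichment among autosomal members, and that of Ndufb2 (ENSMUSG00000002416) because it was highest in the Miwi ADH/- IP relative to input. Each runs 5′ to 3′ from 250 bases before to 50 bases after the start site used for its RefSeq promoter in GRCm38.p6. The positions are chr7:3617123-3617422 on the plus strand for Ndufa3, chr13:73328433-73328732 on the minus strand for Ndufs6 and chr6:39592315-39592614 on the plus strand for Ndufb2. For Ndufa3 the site used is not the listed RefSeq start of the gene, which is at chr7:3617347. Capitals mark matches to AAGATGGC, the core of the YY1 motif, and to GCGCANGCG, the core of the NRF-1 motif.
Ndufa3: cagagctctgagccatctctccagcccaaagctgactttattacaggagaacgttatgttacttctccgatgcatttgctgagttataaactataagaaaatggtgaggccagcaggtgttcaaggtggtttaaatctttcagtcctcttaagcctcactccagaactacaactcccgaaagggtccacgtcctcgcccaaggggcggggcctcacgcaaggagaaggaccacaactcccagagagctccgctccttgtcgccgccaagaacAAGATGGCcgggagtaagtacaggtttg
Ndufs6: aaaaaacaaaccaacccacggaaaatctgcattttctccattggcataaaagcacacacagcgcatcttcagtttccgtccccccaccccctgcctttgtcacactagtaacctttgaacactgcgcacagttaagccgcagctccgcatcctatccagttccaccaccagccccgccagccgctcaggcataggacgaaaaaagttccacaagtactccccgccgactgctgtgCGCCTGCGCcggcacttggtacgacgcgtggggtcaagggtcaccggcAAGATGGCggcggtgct
Ndufb2: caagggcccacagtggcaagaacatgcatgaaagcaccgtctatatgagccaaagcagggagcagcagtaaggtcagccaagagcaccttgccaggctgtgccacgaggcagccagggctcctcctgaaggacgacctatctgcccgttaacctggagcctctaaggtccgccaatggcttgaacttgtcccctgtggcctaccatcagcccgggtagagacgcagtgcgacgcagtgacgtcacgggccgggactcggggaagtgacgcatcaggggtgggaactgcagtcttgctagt
Ndufa3 holds a YY1 match, Ndufs6 holds a YY1 match and an NRF-1 match on the opposite strand, and Ndufb2 holds no match to the motifs searched.

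Promoters of 33 members were matched by symbol among 27025 RefSeq promoters of the same length, and both strands were searched. AAGATGGC was found in 7 of the 33 (21.2%) and in 3.19% of all promoters. Its 7 carriers were Ndufa3, Ndufa9, Ndufb8, Ndufc1, Ndufs4, Ndufs6 and Ndufs7. GCGCANGCG was found in 8 members (24.2%) and in 7.03% of all promoters, and CCGGAAG, the core of ETS family motifs, in 4 members (12.1%) and in 9.93% of all. The first and the last of these motifs can overlap in the letters AAG, and no member held both. They were chosen after some member promoters had been seen. The YY1 carriers included Ndufa3 and Ndufs6, at the top of the enrichment, and Ndufb8, near its bottom.

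Other accessory subunits of the matrix arm lay in between. Ndufa5 had 469 RPKM in Miwi ADH/-, 184 in Miwi +/- and 22.2 in Miwi -/- IPs, against 502, 594 and 598 RPKM in the inputs, and its ratio was 0.935 (0.876 to 0.998) in Miwi ADH/-, 0.309 (0.282 to 0.339) in Miwi +/- and 0.0371 (0.0273 to 0.0493) in Miwi -/-. Ndufa9 (ENSMUSG00000000399), a nucleotide-binding subunit at the junction of the arms, had 24.7 RPKM in Miwi ADH/-, 29.5 in Miwi +/- and 7.61 in Miwi -/- IPs, against 104, 96.5 and 100.1 RPKM in the inputs. Unlike most members it had no more signal in the Miwi ADH/- IP than in the Miwi +/- IP, and its ratios were 0.238 (0.209 to 0.271) in Miwi ADH/-, 0.306 (0.264 to 0.354) in Miwi +/- and 0.0761 (0.0544 to 0.104) in Miwi -/-. Ndufs4 (ENSMUSG00000021764), whose loss in mice is a model of Leigh syndrome, had 115 RPKM in Miwi ADH/-, 43.4 in Miwi +/- and 10.2 in Miwi -/- IPs, against 163, 125 and 156 RPKM in the inputs. On the log2 scale Ndufs4 was enriched over Miwi -/- by 3.31 in Miwi ADH/- and by 2.30 in Miwi +/-.

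In 5 members the Miwi ADH/- IP lay above its input beyond counting error, where 16.6% of kept genes did, and all but Ndufs1 belong to the membrane arm. Ndufb2 had 80.0 RPKM in Miwi ADH/-, 37.2 in Miwi +/- and 10.4 in Miwi -/- IPs, against 42.1, 35.4 and 51.5 RPKM in the inputs, and a ratio of 1.90 (1.67 to 2.17) in Miwi ADH/-, 1.05 (0.892 to 1.24) in Miwi +/- and 0.201 (0.149 to 0.267) in Miwi -/-. Ndufb6 (ENSMUSG00000071014) had 126 RPKM in Miwi ADH/-, 50.7 in Miwi +/- and 20.6 in Miwi -/- IPs, against 82.5, 69.6 and 105 RPKM in the inputs, with a ratio of 1.53 (1.33 to 1.77) in Miwi ADH/- and 0.728 (0.600 to 0.882) in Miwi +/-. Ndufb3 (ENSMUSG00000026032) and Ndufc2 (ENSMUSG00000030647) had ratios of 1.35 (1.14 to 1.60) and 1.23 (1.07 to 1.42) in Miwi ADH/-, against 0.795 (0.664 to 0.950) and 0.473 (0.385 to 0.577) in Miwi +/-. No member lay above its input beyond counting error in Miwi +/- or Miwi -/-, where 11.2% and 6.83% of kept genes did. None of the 5 was 2-fold above input. Below input were 26, 35 and 35 members in Miwi ADH/-, Miwi +/- and Miwi -/-, where 49.1%, 61.1% and 70.0% of kept genes were. Among short and abundant genes, 76.9% of members and 77.0% of the others were below input in Miwi ADH/-, so the members did not stand out there. In Miwi +/- these were 96.2% and 88.3%, and in Miwi -/- 100% and 92.2%. Above input in Miwi ADH/- were 15.4% of members and 11.1% of the others.

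Ndufb8 (ENSMUSG00000025204), also of the membrane arm, was the member lowest relative to input on the log2 scale in both MIWI-bearing IPs. It had 64.0 RPKM in Miwi ADH/-, 25.8 in Miwi +/- and 30.8 in Miwi -/- IPs, against 298, 244 and 268 RPKM in the inputs. Its ratio was 0.215 (0.192 to 0.240) in Miwi ADH/-, 0.106 (0.0858 to 0.129) in Miwi +/- and 0.115 (0.0917 to 0.143) in Miwi -/-, so the Miwi +/- IP did not exceed the background IP. Ndufb4 (ENSMUSG00000022820) was likewise not above background, with 6.84 RPKM in Miwi ADH/-, 2.37 in Miwi +/- and 6.01 in Miwi -/- IPs, against 10.4, 4.46 and 8.82 RPKM in the inputs. It rests on 52, 10 and 18 IP reads, and RefSeq lists copies by name, Ndufb4b and Ndufb4c. How reads shared between copies were counted is not stated, so levels of Ndufb4 and of 5 further members with named copies (Ndufa11, Ndufa12, Ndufab1, Ndufs5 and Ndufs6) are uncertain.

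A few members were too scarce in an IP for more than a bound. Ndufab1 (ENSMUSG00000030869), the mitochondrial acyl carrier protein that also serves fatty acid and lipoic acid synthesis, had 99, 24 and 0 reads in the Miwi ADH/-, Miwi +/- and Miwi -/- IPs. Its ratio of IP to input was 1.03 (0.724 to 1.47) in Miwi ADH/- and 0.449 (0.270 to 0.725) in Miwi +/-, and its Miwi -/- IP was at least 9.79-fold lower than its input, taking 3 reads per column as the floor, while the exact interval of the ratio allows 7.67-fold. Ndufb11 had 11 reads in the Miwi ADH/- IP and 0 in the Miwi +/- and the Miwi -/- IP. Its Miwi +/- IP was at least 6.29-fold lower than its input by the same floor, and the interval allows 4.73-fold. Ndufa4 (ENSMUSG00000029632) had 12.3 RPKM in Miwi ADH/-, 7.59 in Miwi +/- and 7.79 in Miwi -/- IPs, against 8.15, 13.8 and 16.6 RPKM in the inputs, and an enrichment over Miwi -/- of 1.54 in Miwi ADH/- and 0.21 in Miwi +/-.

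The catalytic mutant was compared with the heterozygote directly, each IP relative to its own input. The difference was higher in Miwi ADH/- than in Miwi +/- by a median of 0.88 over the members, against 0.38 for all kept genes. At least 2-fold higher were 15 of 37 members and at least 2-fold lower none, where 20.5% of kept genes were higher and 7.56% lower. In the class of short and abundant genes, 34.6% of members and 17.9% of the others were higher, with medians of 0.86 and 0.50. The ratio was larger in Miwi ADH/- in 34 of 37 members, a count with no share of kept genes beside it here. Its interval lay wholly above that of Miwi +/- in 27 and wholly below in 1, where it lay above for 31.8% and below for 7.29% of kept genes. Among short and abundant genes it lay above for 80.8% of members and 50.2% of the others. The median log2 difference was 0.87 for core, 1.01 for matrix arm and 0.84 for membrane arm subunits. Members at least 2-fold higher were 2 of 7 core, 5 of 9 matrix arm and 6 of 19 membrane arm subunits, and core values spread from -0.74 to 2.19.

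The members with the highest such difference were Ndufb11, Ndufs7 and Ndufa8 (ENSMUSG00000026895). Ndufb11 had 11 reads in the Miwi ADH/- IP and 0 in the Miwi +/- IP, which sets no more than a bound on the IPs, and its inputs held 5 and 24 reads in Miwi ADH/- and Miwi +/-, so part of its place comes from the inputs. Ndufs7 stood at 2.19 on the log2 scale, with 8.60 RPKM in the Miwi ADH/- IP and 3.49 in the Miwi +/- IP. Its input differed in the opposite direction, at 15.2 RPKM in Miwi ADH/- and 33.7 in Miwi +/-. Ndufa8, a subunit on the intermembrane space side, stood at 1.66, with 28.3 RPKM in the Miwi ADH/- IP and 6.90 in the Miwi +/- IP, and inputs of 48.5 and 41.2 RPKM. The gap of Ndufs7 is thus made up by both IP and input, while the input of Ndufa8 differed the same way as its IP and narrowed the gap. At the low end were Ndufs3 at -0.74, Ndufa9 at -0.35 and Ndufv2 at -0.09.

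The rank of members by IP minus input was partly shared between the genotypes, and most between Miwi ADH/- and Miwi +/-. Across the 37 members, the differences in Miwi ADH/- and Miwi +/-, which share no column, had Pearson's r = 0.645 and Spearman's rho = 0.590, and across all 12246 kept genes r was 0.526 and rho 0.536. With Miwi -/-, r across members was 0.326 for Miwi ADH/- and 0.378 for Miwi +/-, below the 0.401 and 0.435 of all kept genes. IP levels followed input levels, with r = 0.917 in Miwi ADH/-, 0.902 in Miwi +/- and 0.733 in Miwi -/- across members. The points are genes of the same libraries and share their depth, and the correlations are descriptions.

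In input RNA the complex I genes differed little between genotypes. The median difference from Miwi +/- was 0.01 in Miwi ADH/- and 0.15 in Miwi -/-, against -0.16 and -0.02 for all kept genes. In Miwi ADH/-, 1 member was at least 2-fold higher and 3 were at least 2-fold lower, where 7.80% of kept genes were higher and 7.42% lower. In Miwi -/-, 1 member was higher and 1 lower, where 4.47% of kept genes were higher and 10.6% lower. These member counts lie near or below the background. In such bulk RNA, fewer cells of a type and less RNA per cell cannot be told apart.

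By counting error alone, 11 members were higher and 13 lower in the Miwi ADH/- input than in the Miwi +/- input, and 19 were higher and 3 lower in the Miwi -/- input. Over all kept genes the shares by the same rule were 20.0% higher and 35.6% lower in Miwi ADH/-, and 22.3% higher and 26.6% lower in Miwi -/-. Among short and abundant genes, 30.8% of members and 34.1% of the others were higher in Miwi ADH/-, and 61.5% of members and 32.9% of the others in Miwi -/-. The 3 members highest in both mutants were Ndufb4, Ndufs5 (ENSMUSG00000028648), a subunit on the intermembrane space side, and Ndufb5 (ENSMUSG00000027673) of the membrane arm. Ndufs5 had 96.4 RPKM in the Miwi ADH/- input, 123 in the Miwi -/- input and 49.3 in the Miwi +/- input, ratios to Miwi +/- of 1.95 (1.63 to 2.35) and 2.50 (2.12 to 2.97). Ndufb5 had 369, 366 and 241 RPKM in the same order, with ratios of 1.53 (1.42 to 1.65) and 1.52 (1.41 to 1.63). Ndufb4 had ratios of 2.33 (1.38 to 4.03) and 1.98 (1.18 to 3.39) on 41, 45 and 24 reads in Miwi ADH/-, Miwi -/- and Miwi +/-. Both comparisons use the same Miwi +/- input, so 1 unusual value there would move both.

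The members lowest in the Miwi ADH/- input were the X-linked Ndufa1 and Ndufb11, and Ndufs7. Relative to Miwi +/-, Ndufa1 was at 0.363 (0.247 to 0.522) in Miwi ADH/- but at 1.36 (1.08 to 1.70) in Miwi -/-, so the mutants lay on opposite sides. For Ndufb11 the ratios were 0.284 (0.0847 to 0.760) and 0.308 (0.112 to 0.736), on 5, 7 and 24 reads in the Miwi ADH/-, Miwi -/- and Miwi +/- inputs. Ndufs7 had ratios of 0.452 (0.329 to 0.614) in Miwi ADH/- and 0.717 (0.562 to 0.913) in Miwi -/-. Ndufb11 and Ndufs7 were thus below Miwi +/- in both mutants.

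**Figure D5:**
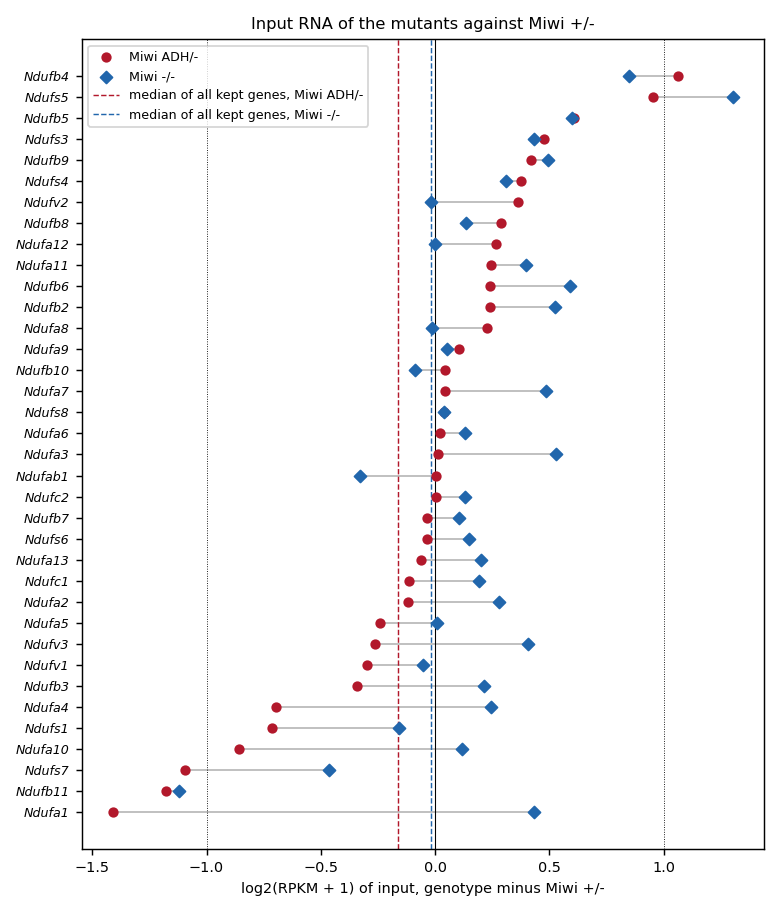
Input level of 36 of the 37 complex I genes in Miwi ADH/- and in Miwi -/-, each less Miwi +/-, in log2(RPKM + 1) units, with dashed lines at the medians of all kept genes. Most members lie within 1 unit of 0, Ndufb4 and Ndufs5 stand at the high end in both mutants, and Ndufa1 is the lowest member in Miwi ADH/-.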

How the data were processed

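RNA-seq of MIWI IPs and inputs was deposited by the authors as RPKM, with 1 column per genotype and fraction. The header names RPKM for the Miwi +/- columns, and it was assumed for the other 4. TopHat, Bowtie and build mm9 are listed, per the submitters' processing notes. The counting tool, the annotation and whether a column pools its 2 samples are not stated in the sources used here. Reads per gene were recovered as whole multiples of each gene's RPKM step (tolerance 0.002 reads, plus a relative 1e-07), and 100% came out whole. Where only 1 column had a value (2893 genes), it was taken as 1 read, so these genes were whole by rule. Tested on simulated data, all reads were right for 96.6% of 12327 genes passing the filter.

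Differences are log2(RPKM + 1), on genes of at least 1 RPKM in at least 2 columns, and understate the change of low genes. Counts use a 2-fold difference. With 1 column per group no model was fitted. Genes named per comparison were the 3 highest and 3 lowest members, besides those singled out for their role. Member symbols come from the list's stated order. For 1 member no values are reported here singly, though it stays in the counts and medians. The members and lists were chosen with earlier results of these data known. Other respiratory chain lists and cell type markers could not be matched to the table's IDs and gave no values. Python 3.11.15, numpy 2.4.6, pandas 2.3.3, SciPy 1.17.1 and matplotlib 3.10.9 were used.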

Additional observations from a re-analysis of the deposited data

Results flagged for a closer look

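In 5 members the Miwi ADH/- IP lay above its input by counting error while the other genotypes did not. By the same rule, 16.6% of kept genes lay above input in Miwi ADH/-, a share that the members did not exceed. The share of kept genes above input in Miwi ADH/- alone is not given here, so the count of 5 has no matching background. The ratio of IP to input in Miwi ADH/- was 1.90 for Ndufb2, 1.53 for Ndufb6, 1.52 for Ndufs1, 1.35 for Ndufb3 and 1.23 for Ndufc2. In the other genotypes the intervals of these genes lay below 1, except for Ndufb2 in Miwi +/-, whose interval included 1. The difference between genotypes was not tested.

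In 4 members the inputs of the mutants lay on opposite sides of the Miwi +/- input beyond counting error. By the same rule, 35.6% of kept genes were lower in the Miwi ADH/- input and 22.3% were higher in the Miwi -/- input. The share of kept genes meeting both is not given here, so the count of 4 has no background beside it. Ndufa1 was at 0.363 times Miwi +/- in Miwi ADH/- and 1.36 times in Miwi -/-. Ndufv3 was at 0.832 and 1.33 times, Ndufa2 at 0.922 and 1.21 times and Ndufc1 at 0.923 and 1.14 times in the same order. Of these, Ndufa1 alone differed by 2-fold or more in a mutant. These differences have no replicate and were not tested.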

How the results depend on the processing

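No paired analysis was possible because the columns carry no replicate number, and for the same reason no replicate could be left out. The summary results were the member median and the counts 2-fold higher and lower in 8 comparisons, 24 in all. None was counted as moved without the filter on low values or with a pseudocount of 0.1. A result not counted as moved can still differ in value, so medians and counts are not fixed under that pseudocount. Some members lie close to the 2-fold cut in the main setting, such as Ndufs3 at 0.94 for Miwi ADH/- over Miwi -/-. Of the single-gene results, 19 were counted as moved with a pseudocount of 0.1, among them the enrichments of Ndufs6 and Ndufa1. Centring each comparison on the median of all kept genes moved the member median to -0.35, -0.89 and -1.86 for IP minus input in Miwi ADH/-, Miwi +/- and Miwi -/-. The median enrichment over Miwi -/- became 1.67 in Miwi ADH/- and 1.01 in Miwi +/-, and that of Miwi ADH/- over Miwi +/- 0.50. For IP minus input this left 2 higher and 6 lower in Miwi ADH/- and 12 lower in Miwi +/-. In Miwi -/- the number lower fell from 36 to 27. Members at least 2-fold higher over Miwi -/- fell from 34 to 24 in Miwi ADH/- and from 27 to 20 in Miwi +/-. Over Miwi -/-, 1 member was lower in Miwi ADH/-. For Miwi ADH/- over Miwi +/-, 9 were higher and 1 lower, and the Miwi ADH/- input had 2 higher. Scaling columns to equal sums of RPKM gave IP minus input medians of -0.16, -0.76 and -1.98, with 5 higher and 4 lower in Miwi ADH/- and 12 lower in Miwi +/-. Enrichment medians were 1.73 and 1.02, with 1 lower for Miwi ADH/- over Miwi +/-, and the Miwi ADH/- input had 0 higher. Other counts with equal sums are not given here. Shares of all kept genes under either setting are not given either, so these member counts have no background beside them.

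Centring on genes of the same bin of length and of input level (5 bins each) was chosen after seeing the data; it also takes out the median of all genes. IP minus input medians became 0.15, -0.22 and -0.55, with 6, 4 and 3 members higher and 3, 6 and 14 lower in Miwi ADH/-, Miwi +/- and Miwi -/-, where 11.5%, 14.4% and 21.7% of kept genes were higher and 11.2%, 13.6% and 18.6% lower. Enrichment over Miwi -/- became 0.90 in Miwi ADH/-, with 15 higher and 1 lower, and 0.30 in Miwi +/-, with 11 higher and 3 lower; Miwi ADH/- over Miwi +/- became 0.39, with 9 higher and 1 lower. So centred, 19.2% of all kept genes were higher in Miwi ADH/- and 21.1% in Miwi +/- for enrichment over Miwi -/-. In the same order, 19.5% and 18.4% of kept genes were lower. For Miwi ADH/- over Miwi +/-, 11.8% of kept genes were higher and 12.004% lower. The inputs had 0 higher in Miwi ADH/-, where 8.46% of kept genes were. In the Miwi -/- input 2 were higher and 0 lower, where 5.47% and 9.50% of kept genes were.

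Among single genes, IP minus input in Miwi -/- turned positive for Ndufa4 (0.37 centred on all genes, 0.50 with equal sums, 1.30 centred on length and level) and Ndufb11 (0.31 centred on all genes). Centred on length and level it was 0.29 for Ndufs1, 0.75 for Ndufs3 and 0.53 for Ndufv1, and enrichment of Miwi ADH/- over Miwi -/- was -0.26 for Ndufv1 and -0.24 for Ndufv2. The Miwi -/- IP, the shallowest column, sets the size of every enrichment over Miwi -/-, and values resting on fewer than 10 reads there have wide intervals.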
